A study of Mus musculus with 8 samples.

Results

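The 10 genes described here present antigens through the major histocompatibility complex (MHC). H2-Aa, H2-Ab1, H2-Eb1, H2-DMa, Cd74 and Ciita belong to the class II arm, and H2-K1, H2-D1, B2m and Tap1 to the class I arm. The genes were taken by name, with earlier results of these data known. All 10 had a probe on both array designs. On each slide 9 of the 10 were bright enough to test, among 28522 genes tested on the first slide and 19929 on the second. A probe of identical sequence on both designs was available for 6 members, among 9213 genes tested across the slides.

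The study followed mouse bone marrow (BM) cells that were transplanted into mice with injured livers. Lin- BM cells, which lack the surface proteins of mature blood lineages, came from female C57Bl6/J-Tg(UBCGFP)30Scha/J donors of 6 to 8 weeks, which carry eGFP under the ubiquitin C promoter. The column depletion used a mixture of lineage antibodies, among them those against CD5, CD11b, CD45R, 7-4, Gr-1 and Ter119. The recipients were male B6;129S4-F8tm1Kaz/J mice of 6 to 8 weeks, a hemophilia A strain without a working coagulation factor VIII gene, whose livers had been injured with acetaminophen. Within 30 h they received the cells by vein. BM-derived hepatocytes were isolated from the recipients 1 month or 5 months later by collagenase perfusion, a low speed spin and sorting for eGFP. Primary hepatocytes were the fourth group, and the sources used here give neither the strain nor the age of the mice they came from. Each of the 4 groups had 2 arrays. The study states for its array comparisons that each experiment pooled cells of 3 mice, so that the spread between arrays is one between pools. The Lin- BM cells (replicates 3 and 4) and the 1-month cells (replicates 1 and 2) shared one slide. The primary hepatocytes (replicates 2 and 4) and the 5-month cells (replicates 1 and 3) shared a second slide of another array design, scanned on another day. Between groups on different slides, slide, design and group therefore cannot be told apart.

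Class I molecules are made by nearly all nucleated cells. A heavy chain such as H2-K1 or H2-D1 pairs with beta 2-microglobulin (B2m) and shows peptides cut by the proteasome and carried into the endoplasmic reticulum by the Tap1 and Tap2 transporter. Class II molecules are made chiefly by dendritic cells, macrophages and B cells. There the invariant chain Cd74 guides the alpha and beta chains, H2-DM exchanges its fragment for an antigen peptide, and Ciita switches the genes on. In a normal liver, class II is found mainly on Kupffer cells, the resident macrophages, and on dendritic and sinusoidal cells, while hepatocytes carry class I and little or no class II.

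The promoters of the 2 arms share sequence boxes, and 4 of them are shown so that the boxes of class II and class I genes, whose transactivators are measured below, can be read side by side. The sequences are the 180 bases before the annotated start, read 5′ to 3′ on the gene's strand from RefSeq's GRCm38.p6 table. Capitals mark, on either strand, the cores of the X1 box (GCAAC), the X2 box (TGACG), the Y box (ATTGG), the interferon regulatory factor site (AANNGAAA) and the class I kappa B site (GGGATTCCC).
H2-Aa: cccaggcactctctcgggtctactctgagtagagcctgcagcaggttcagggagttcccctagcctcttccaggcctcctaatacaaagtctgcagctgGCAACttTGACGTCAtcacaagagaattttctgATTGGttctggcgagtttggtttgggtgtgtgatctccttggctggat
H2-Eb1: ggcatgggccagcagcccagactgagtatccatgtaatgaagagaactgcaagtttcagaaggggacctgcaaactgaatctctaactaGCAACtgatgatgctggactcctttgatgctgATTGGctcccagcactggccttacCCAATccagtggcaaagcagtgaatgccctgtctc
B2m: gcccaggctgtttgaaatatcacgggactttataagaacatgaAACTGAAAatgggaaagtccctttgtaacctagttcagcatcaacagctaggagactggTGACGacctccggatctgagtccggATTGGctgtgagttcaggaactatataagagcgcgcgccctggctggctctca
H2-D1: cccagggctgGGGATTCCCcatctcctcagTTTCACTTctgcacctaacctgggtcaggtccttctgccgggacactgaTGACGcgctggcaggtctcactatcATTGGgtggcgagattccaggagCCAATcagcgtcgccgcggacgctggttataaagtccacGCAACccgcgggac
These lie at chr17:34287824-34288003 on the minus strand, and on the plus strand at chr17:34305687-34305866, chr2:122147507-122147686 and chr17:35262914-35263093. In H2-Aa the X2 core was found on both strands, so that its 2 matches overlap. The class II genes H2-Aa and H2-Eb1 held an X1 core followed by a Y core, with 28 and 27 bases between them. The class II member H2-DMa did not hold this order before either of its 2 listed starts. Unlike those of H2-Aa and H2-Eb1, neither start lies at the end of the annotated gene. The bases before that end were not searched. This order, with 20 to 40 bases between, stood in 0.84% of 32851 mouse promoters searched over 250 bases. Single cores were common, at 29.88% for X1, 17.77% for X2, 33.85% for Y and 21.31% for the interferon site. The kappa B letters of H2-D1, which the H2-K1 promoter also held, stood in 0.3%. Such matches describe letters and are no evidence of binding.

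Levels are given as normalised log2 signal, the log2 of the array's processed signal minus the 75th percentile of that array, so that 0 is the signal at that percentile. Levels of different probes are not set against each other. A gene was called changed at a limma adjusted p under 0.05 together with a log2 difference beyond 0.6. Between 47.7% and 58.6% of probes were well above background on an array, which is the scanner software's own test, and no spot was saturated. Of the 8 hepatocyte markers (Alb, Apoa1 and others), all 8 were well above background on the arrays of hepatocytes of all 3 kinds and 3 on the Lin- BM arrays. All 6 T and NK cell markers (Cd3d, Nkg7 and others) were well above background in Lin- BM cells, with a summed linear signal of 185 in replicate 3 and 59.5 in replicate 4, although CD5 was among the depleted proteins. Their part in the Lin- BM levels below was not tested.

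Cd74, H2-Ab1, H2-Aa and Ciita were spread widely between the 2 arrays of the 1-month cells, while H2-DMa, described further on, stood lower on both. Cd74 read 4.97 and 5.00 in Lin- BM cells, and 2.90 and 5.31 at 1 month. H2-Ab1, a class II beta chain, read 2.71 and 2.68 in Lin- BM cells, and 0.20 and 2.56 at 1 month. H2-Aa, an alpha chain, read -1.90 and -2.11 in Lin- BM cells, and -3.36 and -1.11 at 1 month. In each gene replicate 1 was the low array, below both Lin- BM arrays, and replicate 2 was near or above them. Ciita, the class II transactivator, read -2.29 and -2.79 in Lin- BM cells, and -4.96 and -2.76 at 1 month. Replicate 1 was not well above background for H2-Aa and Ciita. H2-Eb1 was well above background only in replicate 2 of the 1-month cells, at -3.24, and was not tested on this slide.

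**Figure D1:**
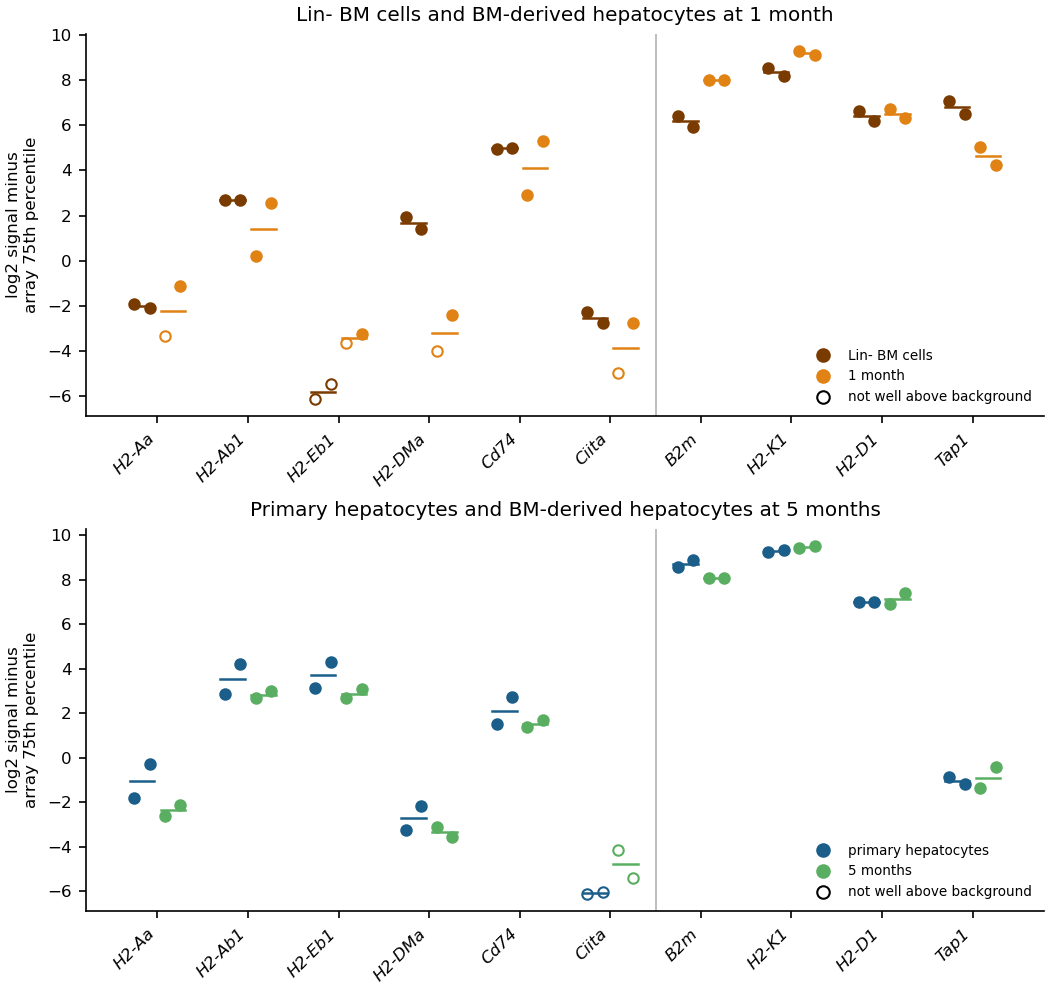
Normalised log2 signal of the 10 members on each array, with the first slide above and the second below. Points are arrays, filled where the probe was well above background, and short lines are group means (n = 2). Among the class II genes, left of the grey line, Cd74 and H2-Ab1 are spread between the 1-month arrays. H2-Aa, H2-Eb1, H2-DMa and Ciita are well above background there in replicate 2 alone. The class I genes differ between these 2 arrays by -0.78 to -0.04.

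Of the 5 class II members tested on this slide, 1 was called lower at 1 month and 4 were not called. H2-DMa, the alpha chain of the peptide exchanger, read 1.94 and 1.39 in Lin- BM cells, and -3.99 and -2.42 at 1 month, where only replicate 2 was well above background. The groups did not overlap, and the log2 difference was -4.87 (SE 0.59, n = 2 per group, limma adjusted p = 0.0030), a value that includes replicate 1. Without that array the difference was -4.09 (adjusted p = 0.012), and with normexp background correction it was -2.36 (adjusted p = 0.0026). The differences of the others were -0.88 for Cd74 (SE 0.81, adjusted p = 0.388), -1.31 for H2-Ab1 (SE 0.79, adjusted p = 0.214), -0.23 for H2-Aa (SE 0.76, adjusted p = 0.812) and -1.32 for Ciita (SE 0.76, adjusted p = 0.197). Among all genes tested, 28.8% were called higher and 26.5% lower, against 1 and 2 of the 9 members of both classes. The median log2 difference was -0.88 over the 9 members and 0.07 over all genes. Without replicate 1 of the 1-month cells, Cd74 was 0.32 and H2-Aa 0.90 above Lin- BM cells, uncalled. Without replicate 2, Cd74 (-2.08), H2-Ab1 (-2.49) and Ciita (-2.42) were called lower.

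Other probes of the same genes gave the same division. For Cd74, the other probes read 2.57 and 5.24, and -0.08 and 1.88, at 1 month. For H2-Ab1 they read -2.33 and 0.42, and -4.41 and -1.63, and for H2-Aa -3.75 and -1.39, where the values of -4.41 and -3.75 were not well above background. A second Ciita probe was not well above background on any array.

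The step from replicate 1 to replicate 2 of the 1-month cells was 2.40 in Cd74 and 2.36 in H2-Ab1, the class II members well above background on both arrays. H2-DMa, H2-Aa and Ciita were well above background in replicate 2 alone, so that the size of their step is not measured. Over all 28522 genes the 5th percentile of this step was -0.89 and the 95th was 1.23. The Kupffer cell markers moved with it. Of 12 such markers, 11 were higher in replicate 2, with a median step of 2.42. Clec4f, a Kupffer cell lectin, differed by 2.49, Vsig4 by 2.42 and Adgre1, the F4/80 antigen, by 2.42. Marco, a scavenger receptor, differed by -0.81. The summed linear signal of the 12 markers was 12.9 in replicate 1, where all but Cd68 were well above background, and 51.8 in replicate 2, with all 12 above it. In Lin- BM cells it was 4.51 and 10.3, with Clec4f, Vsig4 and Folr2 not well above background on either array. Of 8 dendritic cell markers, 3 were well above background in replicate 1 and 4 in replicate 2, and Itgax, Cd209a, Siglech and Ccr7 were so on neither 1-month array. Of the 7 dendritic cell markers tested, 6 were higher in replicate 2, with a median step of 0.68. The 4 class I members showed no such step (-0.78 to -0.04), nor did the hepatocyte markers (median -0.04). The part of Kupffer and dendritic cell RNA in the class II levels was not tested. In such bulk samples fewer cells of a type and less RNA per cell cannot be told apart.

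**Figure D2:**
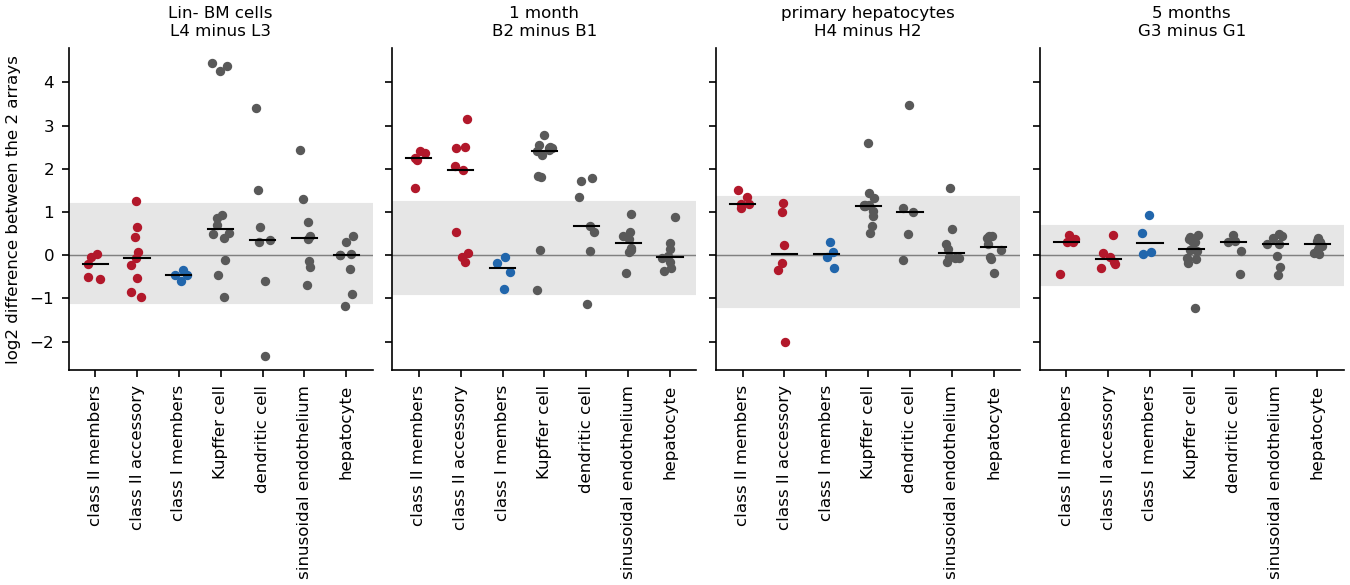
Log2 difference between the 2 arrays of each group (the array names end in the replicate number), by gene list, with a black line at each list's median and a grey band from the 5th to the 95th percentile of all genes tested. Class II members (red) and Kupffer cell markers have medians of 2.25 and 2.42 at 1 month, where 3 of the 5 class II members were not well above background in replicate 1, and of 1.19 and 1.15 in primary hepatocytes, while class I members (blue) lie between -0.78 and 0.93 over the 4 groups. Dendritic cell markers have medians of 0.68 at 1 month and 1.01 in primary hepatocytes.

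The class II members also differed between the 2 primary hepatocyte arrays, by a smaller step. Cd74 read 1.53 and 2.71 in primary hepatocytes, and 1.38 and 1.68 at 5 months. H2-Ab1 read 2.88 and 4.22 in primary hepatocytes, and 2.69 and 2.99 at 5 months, and its second probe read 2.67 and 4.0, then 2.65 and 2.93. H2-Eb1, the other beta chain, read 3.14 and 4.31 in primary hepatocytes, and 2.69 and 3.07 at 5 months. Replicate 4 of the primary hepatocytes was the high array each time, and replicate 2 lay close to the 5-month pair. H2-Aa read -1.78 and -0.28 in primary hepatocytes, and -2.59 and -2.13 at 5 months. H2-DMa read -3.25 and -2.15 in primary hepatocytes, and -3.10 and -3.53 at 5 months. The step between the primary hepatocyte arrays was 1.1 to 1.5 over these 5 members and 0.51 to 2.60 over the 12 Kupffer cell markers, all of which were higher in replicate 4. Dendritic cell markers moved too, with 4 of 5 tested higher in replicate 4. Their median step was 1.01, with a range from -0.11 to 3.47. The part of either cell type in this step was not tested. Ciita was not well above background on any of the 4 arrays, so that no fold can be given.

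All 5 class II members tested stood lower at 5 months than in primary hepatocytes, by -0.59 (Cd74) to -1.33 (H2-Aa, SE 0.57, adjusted p = 0.400), and limma called none. The background in this comparison was 0.366% of genes called higher and 0.186% lower. Of the 9 members of both classes 1 had an unadjusted limma p under 0.05, beside 2817 of all 19929 genes. The methods' t-test, without adjustment, called 0 members, beside 1363 of all genes. Without replicate 2 of the primary hepatocytes, H2-Aa was called lower (-2.08). Without replicate 4, the Cd74 difference was 0.0020. The Kupffer cell markers stood the other way, 12 of 12 higher at 5 months with a median log2 difference of 0.97 and none called. Their summed signal was 37.3 and 79.8 in primary hepatocytes and 139 and 138 at 5 months. The 8 hepatocyte markers had a median difference of 0.14.

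Of the 9 genes tested that work with class II in the cell, 6 were called lower at 1 month and 2 higher. Over all genes 26.5% were called lower and 28.8% higher. The median log2 difference of the 9 was -2.80. H2-Oa, a chain of the H2-DM inhibitor, read 2.23 and 1.37 in Lin- BM cells and was not well above background on either 1-month array, at least 35.9-fold lower (adjusted p = 0.0032). Marchf1, a ubiquitin ligase that removes class II from the surface, read 0.48 and 0.55 in Lin- BM cells, and -5.19 and -2.04 at 1 month, a difference of -4.13 (SE 1.04, adjusted p = 0.025) with replicate 1 not well above background. The other 4 called lower were H2-DMb1, H2-DMb2, Ifi30 and H2-Ob, the last at least 3.56-fold lower with neither 1-month array well above background. Ctss, cathepsin S, stood at -2.60 (adjusted p = 0.0501), past the limit of the call. The 2 genes called higher are proteases of the endosome that most cells use. Ctsl, cathepsin L, read 3.57 and 3.99 in Lin- BM cells, and 8.36 and 8.31 at 1 month (difference 4.55, SE 0.29, adjusted p = 0.00052). Lgmn, asparaginyl endopeptidase, was higher by 2.80 (SE 0.33, adjusted p = 0.0027). Of the accessory genes well above background on both 1-month arrays, H2-DMb1 (1.98) and Ctss (2.50) stood higher in replicate 2, while Ctsl (-0.05), Lgmn (0.04) and Ifi30 (0.54) lay within the 5th to 95th percentile of all genes. In the same comparison 4 of 7 dendritic cell markers tested were called lower and 1 higher, with a median of -3.39, and 3 of 6 B cell markers were called lower. In Lin- BM cells 7 of 8 dendritic and 6 of 8 B cell markers were well above background on each array. The part of these cells in the falls of H2-DMa and the accessory genes was not tested. At 5 months against primary hepatocytes none of the 6 accessory genes tested was called.

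The 10 transactivators tested act on the X and Y boxes and the interferon sites shown above. Of these, 2 were called lower at 1 month and none higher, beside 26.5% and 28.8% of all genes. Nfya, a subunit of the factor that binds the Y box, read 1.65 and 2.40 in Lin- BM cells, and -2.03 and -2.62 at 1 month, a difference of -4.35 (SE 0.39, adjusted p = 0.0014). Creb1, which binds the X2 box, was lower by -2.17 (SE 0.27, adjusted p = 0.0033). Nlrc5, the class I transactivator, differed by -1.52 (adjusted p = 0.137) and Irf1 by -0.05, both uncalled. Of 5 costimulation genes tested, 3 were called lower. Icosl was at least 9.91-fold lower at 1 month, where neither array was well above background. Cd274, which encodes PD-L1, was lower by -2.32 (SE 0.45, adjusted p = 0.012). Pdcd1lg2, which encodes PD-L2, was the third, also not well above background on either 1-month array.

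**Figure D3:**
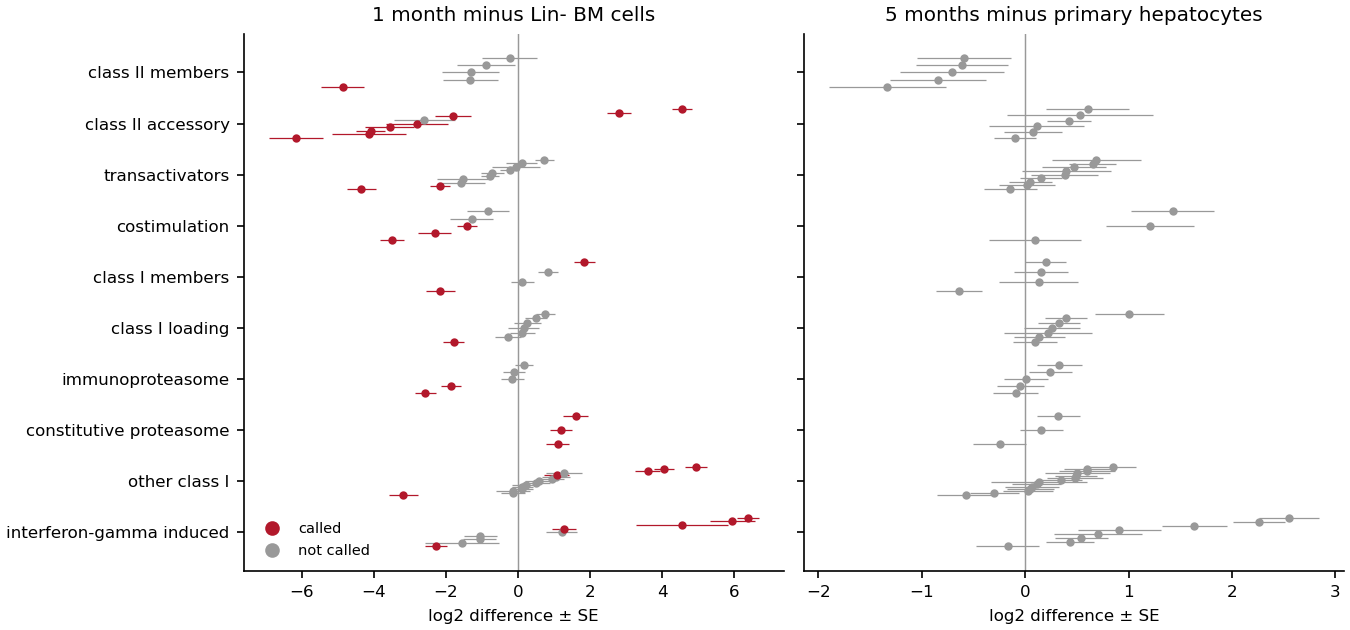
Log2 difference with its SE for each gene tested in the member lists and the other antigen presentation lists, at 1 month against Lin- BM cells (left) and at 5 months against primary hepatocytes (right). Red points were called. In the left panel class II accessory and costimulation genes lie mostly below 0 and constitutive proteasome genes above it, and no gene in the right panel was called.

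B2m, the light chain of every classical class I molecule, was the 1 member called higher at 1 month than in Lin- BM cells. It read 6.40 and 5.95 in Lin- BM cells, and 8.03 and 7.99 at 1 month. The groups did not overlap, and the log2 difference was 1.84 (SE 0.29, n = 2 per group, adjusted p = 0.0064), a 3.58-fold higher signal. A second B2m probe rose by 1.72 (adjusted p = 0.0072). The heavy chain H2-K1 read 8.55 and 8.20 in Lin- BM cells, and 9.29 and 9.11 at 1 month, which do not overlap, but its difference of 0.83 (SE 0.28, adjusted p = 0.058) was not called. Its other probes differed by 0.93 and 0.42, uncalled. The heavy chain H2-D1 read 6.64 and 6.18, then 6.71 and 6.33, a difference of 0.11 with a 95% interval from -0.71 to 0.93. In heavy chains the probes of paralogs can share signal. The longest run shared with a probe of another class I gene was 24 of 60 bases for the H2-D1 probe read here and 29 for the second H2-K1 probe of the second slide.

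On the second slide B2m read 8.56 and 8.86 in primary hepatocytes, and 8.06 and 8.09 at 5 months. The groups did not overlap, and the difference of -0.64 (SE 0.22, adjusted p = 0.333) was not called. H2-K1 read 9.23 and 9.31, then 9.44 and 9.51, a difference of 0.20 with a 95% interval from -0.33 to 0.73. Its 10 repeated spots had an SD of 0.03 to 0.04 on an array. H2-D1 read 7.02 and 6.98, then 6.89 and 7.41, a difference of 0.15 (interval -0.55 to 0.86).

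Tap1, a chain of the peptide transporter, was called lower at 1 month. Its brightest probe read 7.10 and 6.5 in Lin- BM cells, and 5.03 and 4.25 at 1 month, a difference of -2.16 (SE 0.40, adjusted p = 0.0104). A second probe, printed in 8 spots, read 0.27 and -0.43, then -2.04 and -2.62, a difference of -2.25 (SE 0.39, adjusted p = 0.0079). Both probes gave groups that do not overlap. Tap2, the partner chain, was lower by -1.78 (SE 0.29, adjusted p = 0.0068). It was the only one of 7 class I loading genes called, beside 28.8% of all genes called higher and 26.5% lower. The chaperones Tapbp, Calr and Canx differed by 0.12, 0.26 and -0.28. Without replicate 2 of the 1-month cells the Tap1 difference was -1.77 (adjusted p = 0.051). On the second slide Tap1 read -0.88 and -1.17 in primary hepatocytes, and -1.36 and -0.43 at 5 months, which overlap (difference 0.13, interval -0.90 to 1.16).

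The proteasome genes divided in the same comparison. The constitutive catalytic subunits were all called higher at 1 month, where 28.8% of all genes were called higher and 26.5% lower. Psmb5 read 4.51 and 5.28 in Lin- BM cells, and 6.44 and 6.54 at 1 month (difference 1.60, SE 0.35, adjusted p = 0.017). Psmb6 was higher by 1.19 (adjusted p = 0.027) and Psmb7 by 1.1 (adjusted p = 0.035). Of the 5 immunoproteasome genes, which cells of the immune system and cells exposed to interferon gamma use to cut peptides for class I, 2 were called lower. Psmb8 read 6.05 and 5.75 in Lin- BM cells, and 3.5 and 3.15 at 1 month (difference -2.57, SE 0.29, adjusted p = 0.0025). Psmb9, the neighbour of Tap1 in the class II region, was lower by -1.85 (SE 0.28, adjusted p = 0.0059). Psmb10 (-0.15), Psme1 (-0.11) and Psme2 (0.17) were not called. At 5 months and in primary hepatocytes the 8 genes differed by -0.24 to 0.33, with none called.

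Of 15 class I genes outside the classical pathway tested at 1 month, 4 were called higher and 1 lower. The shares over all genes were 28.8% and 26.5%. The median log2 difference was 0.57 over the 15 and 0.07 over all genes. Fcgrt, the neonatal Fc receptor that recycles IgG and albumin, read -0.98 and -0.85 in Lin- BM cells, and 4.31 and 3.73 at 1 month (difference 4.94, SE 0.32, adjusted p = 0.00054). Hfe, a regulator of iron uptake through hepcidin, was higher by 4.05 (SE 0.27, adjusted p = 0.00058). Cd1d1, which shows lipids to NKT cells, was the third. H2-M3, which binds formylated peptides, read 3.02 and 2.16 in Lin- BM cells, and -0.85 and -0.33 at 1 month (difference -3.18, SE 0.41, adjusted p = 0.0036).

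The fourth was H2-Q10, a secreted class I chain made in the liver, which is singled out after its values were seen because its probes disagreed. The probe read by the rule, the brightest, gave 5.93 and 5.31 in Lin- BM cells, and 6.87 and 6.52 at 1 month (difference 1.07, adjusted p = 0.047), and the array's annotation lists it for the H2-D1 transcript too. The other 3 probes are listed for H2-Q10 alone and also differed in size. They gave -2.24 and -3.10, then 7.07 and 7.21 (difference 9.81, SE 0.38, adjusted p = 0.00012), then 0.07 and -0.86 against 8.17 and 8.31 (difference 8.64, SE 0.39, adjusted p = 0.00020), and 2.60 and 1.80 against 4.74 and 4.44 (difference 2.39, SE 0.37, adjusted p = 0.0060). All 4 probes were higher at 1 month, and the size ranged from 1.07 to 9.81 with the probe. H2-Q10 stood at 8.62 and 8.77 in primary hepatocytes, and at 9.14 and 9.23 at 5 months, by another probe. H2-Q1, of the same list, is also named after its values were seen. Its probes disagreed too at 1 month against Lin- BM cells. One differed by 0.93, uncalled, and the other by 5.13 (SE 0.88, adjusted p = 0.0078), called, and by the probe read H2-Q1 was not called.

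Genes that interferon gamma induces moved in both directions at 1 month, 4 of 9 called higher and 1 lower. Over all genes the shares were 28.8% and 26.5%. Iigp1, an immunity GTPase, read 0.94 and 0.43 in Lin- BM cells, and 7.18 and 6.95 at 1 month (difference 6.38, SE 0.31, adjusted p = 0.00027). Cxcl9, a T cell chemokine, read -4.02 and -2.77, then 3.19 and 1.91 (difference 5.95, SE 0.62, adjusted p = 0.0020). Gbp3, a guanylate binding protein, was lower by -2.28 (SE 0.30, adjusted p = 0.0038). Irgm1, another immunity GTPase, was higher by 1.27 (adjusted p = 0.028) and the chemokine Cxcl10 by 4.56 (SE 1.28, adjusted p = 0.034). In Cxcl10 the 1-month arrays read 5.29 and 1.37, with replicate 1 the higher, the reverse of the class II genes. Tap1, Psmb8 and Psmb9, which interferon gamma also induces, were called lower in these same arrays. B2m (1.84) was called higher there, and Psmb10 (-0.15), Psme1 (-0.11) and Psme2 (0.17) were not called. The part of interferon gamma in these differences was not tested. On the second slide 7 of 8 such genes stood higher at 5 months with none called, led by Cxcl9 at 2.55 (adjusted p = 0.0695).

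Over the antigen presentation lists other than the members, and without the cell type markers, 13 of 63 genes were called higher and 16 lower at 1 month against Lin- BM cells, beside the 28.8% and 26.5% of all genes, with a median difference of -0.11. At 5 months against primary hepatocytes limma called none of 55. An unadjusted limma p under 0.05 was found for 8 of the 55, beside 2817 of all 19929 genes, a near equal share. Their median difference was 0.33 beside 0.04 over all genes.

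Across slides, the 6 members with a shared probe were read on the scale of shared probes. B2m read 5.02 and 4.43 in Lin- BM cells, 6.59 and 6.6 at 1 month, 6.85 and 7.19 in primary hepatocytes, and 6.44 and 6.42 at 5 months. The 3 hepatocyte groups lay above Lin- BM cells on every array. B2m was higher than in Lin- BM cells by 1.70 at 5 months (SE 0.27, adjusted p = 0.0016) and by 2.30 in primary hepatocytes (adjusted p = 0.00039). H2-K1 read 7.18 and 6.68 in Lin- BM cells, 7.85 and 7.72 at 1 month, 7.53 and 7.64 in primary hepatocytes, and 7.82 and 7.84 at 5 months. It was called higher at 5 months by 0.90 (adjusted p = 0.015) and in primary hepatocytes by 0.66 (adjusted p = 0.048). With quantile normalisation both H2-K1 differences turned below 0 and the 5-month B2m difference fell to 0.56, uncalled.

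H2-DMa was the class II member called in these comparisons. It read 0.57 and -0.14 in Lin- BM cells, -5.44 and -3.81 at 1 month, -4.96 and -3.82 in primary hepatocytes, and -4.73 and -5.20 at 5 months. It was lower than in Lin- BM cells by -5.18 at 5 months (SE 0.63, adjusted p = 0.00045) and by -4.61 in primary hepatocytes (adjusted p = 0.00072), which normexp made -2.74 and -2.64, both still called. Cd74 differed by -0.58 and -0.03 and H2-Aa by -0.55 and 0.74, all uncalled. Tap1 was called lower in primary hepatocytes (-1.18, SE 0.42, adjusted p = 0.043) and not at 5 months (-1.01, adjusted p = 0.072). The primary hepatocyte calls of H2-K1 and Tap1 were both lost without either primary hepatocyte array, at 0.60 and 0.72 for H2-K1 and -1.05 and -1.31 for Tap1. These comparisons and that at 1 month share the Lin- BM arrays. The background at 5 months was 29.3% of genes called higher and 37.8% lower, against 2 and 1 of 6 members. In primary hepatocytes it was 29.3% and 38%, against 2 and 2 of 6.

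**Figure D4:**
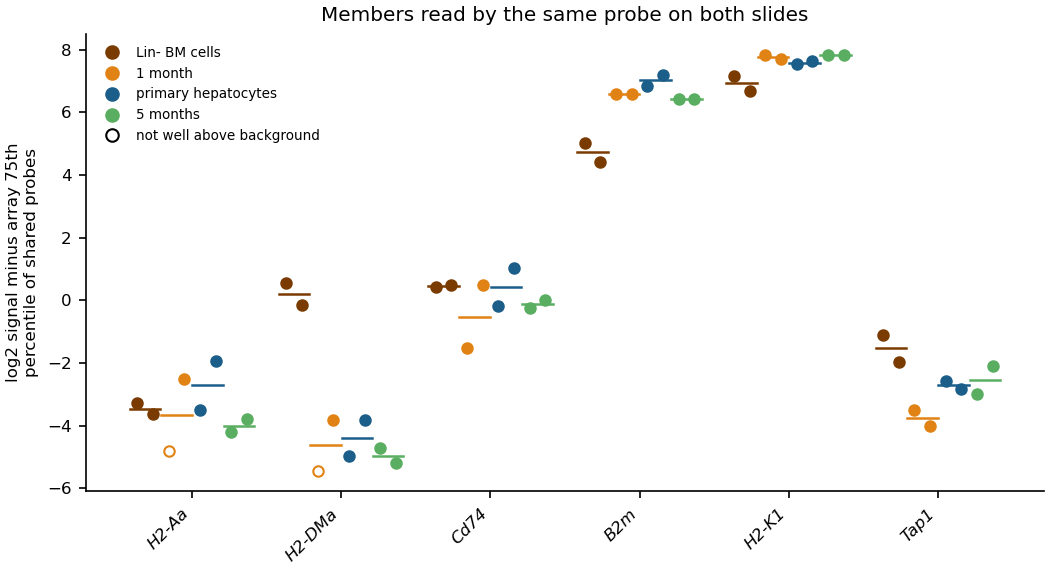
Normalised log2 signal of the 6 members with a probe of identical sequence on both slides, on the scale of shared probes. Points are arrays, filled where well above background, and lines are group means (n = 2). H2-DMa is high in Lin- BM cells alone, and B2m is lowest there.

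None of the 6 members was called between the 1-month cells and primary hepatocytes, where 11.6% of genes were called higher and 5.09% lower. None was called between 5 months and 1 month, where 5.75% were called higher and 11.1% lower. In these comparisons the methods' t-test, without adjustment, called 0 members, beside 1768 and 2275 of all 9213 genes. An unadjusted limma p under 0.05 was found for 1 member in each, beside 2967 and 3191 of all genes. That member was Tap1, which read -3.49 and -4.01 at 1 month, -2.58 and -2.84 in primary hepatocytes, and -2.98 and -2.10 at 5 months. Its 1-month arrays lay below the others, with differences of -1.04 (adjusted p = 0.147) and 1.21 (adjusted p = 0.096). The 95% intervals of the B2m differences were -1.08 to 0.22 and -0.82 to 0.49, and those of Cd74 -2.58 to 0.68 and -1.23 to 2.04. Of the 7 interferon gamma genes tested with a shared probe, 5 were called higher at 1 month than in primary hepatocytes. These were Gbp2, Igtp, Cxcl9, Cxcl10 and Socs1, by 1.57 (Igtp) to 5.60 (Cxcl10). Cxcl10 and Socs1 were spread widely between the 1-month arrays (SD 2.73 and 1.90), though the groups did not overlap. Iigp1 was the one called lower at 5 months than at 1 month (-1.46, adjusted p = 0.042). Calls were not confined to this list. Of 35 genes tested in the lists other than the members, 6 were called higher and 2 lower at 1 month than in primary hepatocytes. At 5 months against 1 month 3 of the 35 were called higher, in the class I loading and other class I lists, and 1 lower.

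By the root mean square difference of mean-centred log2 signals over the 8 arrays, the genes most like Cd74 among 9213 were Ear1, Ccnt2, Ppp4r1l-ps, Nepro and H2-Aa, at 0.35 to 0.41, where the median gene stood at 1.13. Those most like B2m were Phlpp1, Auh, Lypla1, Dstn and Sacm1l, at 0.14 to 0.22, with a median gene at 1.28. All 8 arrays share the slide split, and the likeness is a description.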

How the data were processed

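Gene expression was measured on 8 one-colour Agilent arrays of 2 designs, with 61307 and 55681 distinct probes and 13991 shared sequences. Per the file headers the deposited intensities are Feature Extraction processed signals, background-subtracted by the scanner software, on probes mapped to mm9. The authors also deposited log2 values, shifted to each array's 75th percentile in GeneSpring, which served as an alternative. Non-outlier spots of a probe were averaged, and log2 of the processed signal minus the array's 75th percentile was taken, over all probes within a slide and over shared probes across slides. A probe entered the fit when the scanner's background test passed on the 2 arrays of any group, and the brightest probe of a gene was read. Genes were named by accession, then by symbol or synonym, in RefSeq's GRCm38.p6 table, and otherwise kept the array's name. Differences were tested with limma 3.58.1 in R 4.3.3 (lmFit, eBayes), and p-values were adjusted across the whole table by Benjamini-Hochberg, on the 4 arrays of a slide or on all 8 arrays across slides. The scripts were tested on simulated data. Exact permutation of 2 against 2 arrays cannot go below 0.33.

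The members and gene lists were chosen with earlier results of these data known. Probes other than the brightest take their values from a fit of every probe. The text names all members, for each list the called genes with the 2 largest rises and 2 largest falls within a slide, the 5 genes most like Cd74 and B2m, and marker lists by counts. Further called genes of these lists were named after their values were seen. The alternatives were normexp background correction, quantile normalisation, other percentile sets, no filter on dim probes, the mean of a gene's probes, every probe alone, the authors' values, the t-test the methods name, and leaving out each array. Promoters of H2-Ab1 and Ciita were not used here.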

Additional observations from a re-analysis of the deposited data

How the results depend on the processing

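The number of members called at 1 month against Lin- BM cells was 3, and it was 5 with every probe on its own (the same 3 genes with further probes), 0 by the methods' t-test after Benjamini-Hochberg adjustment, and 3 to 5 when 1 array was left out. At 5 months against primary hepatocytes it was 0, and 0 to 1 with 1 array left out. At 5 months against Lin- BM cells it was 3, and 1 with quantile normalisation, 1 by the adjusted t-test and 2 to 3 with 1 array left out. In primary hepatocytes against Lin- BM cells it was 4, and 2 with quantile normalisation, 2 without the filter on dim probes, 2 by the unadjusted and 0 by the adjusted t-test, and 2 to 3 with 1 array left out. Between hepatocyte groups across slides it was 0 under all alternatives run.

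The sign of a member turned as follows. At 1 month against Lin- BM cells normexp gave 0.37 for Ciita, 0.39 for H2-Aa and -0.31 for H2-D1, and quantile normalisation gave -0.38 for H2-D1. Quantile normalisation gave -0.26 for H2-K1 at 5 months against Lin- BM cells and -0.38 in primary hepatocytes, both called in the main setting. There Cd74 was 0.22 with the authors' values and 0.21 with the percentile over all probes. At 1 month against primary hepatocytes normexp gave 0.13 for H2-Aa, 0.50 for H2-DMa and 0.0020 for Tap1, and H2-K1 was -0.083 with the authors' values and -0.072 with the percentile over all probes. At 5 months against 1 month B2m was 0.043 with normexp, 0.070 with the authors' values and 0.060 with the percentile over all probes, and quantile normalisation gave 0.19 for H2-DMa and -0.20 for H2-K1. The cause was not tested.

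With 1 array left out, values at 1 month against Lin- BM cells ran from -0.12 to 0.35 for H2-D1, -2.08 to 0.32 for Cd74 and -1.35 to 0.90 for H2-Aa. Values at 5 months against primary hepatocytes ran from -1.18 to 0.0020 for Cd74, -0.34 to 0.60 for Tap1 and -0.11 to 0.41 for H2-D1. In primary hepatocytes against Lin- BM cells they ran from -0.64 to 0.58 for Cd74 and -0.033 to 1.5 for H2-Aa. At 1 month against primary hepatocytes they ran from -1.04 to 0.58 for H2-DMa, -1.96 to 0.052 for Cd74 and -2.09 to 0.22 for H2-Aa. Those at 5 months against 1 month ran from -0.60 to 1.41 for Cd74, -1.5 to 0.80 for H2-Aa, -1.15 to 0.47 for H2-DMa and -0.016 to 0.11 for H2-K1. A lone array was then assumed to vary like the other groups.

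Normexp moved the median log2 difference of all genes at 1 month against Lin- BM cells from 0.07 to 0.36, and at 5 months against Lin- BM cells from -0.30 to 0.09. Over single members, 450 values under alternatives kept direction and side of the threshold, 37 changed sign, 23 lost a call and 6 gained one. The 2 arrays of each group limit the precision. No paired analysis was made, because the labels do not state that arrays of different groups form pairs, by replicate number or otherwise.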
